A study of Mus musculus with 8 samples.

Results

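The ER secretory pathway and the enzymes that modify collagen inside it were described through 40 genes whose RNA was sequenced from whole mouse embryos, 1 embryo per library, at E6.75. The genes were taken by symbol from the deposited table, which holds 21182 gene symbols, and all 40 were found. All 40 also passed the filter on low values, an RPKM (reads per kilobase of gene model per 1000000 mapped reads) of 1 or more in no fewer than 4 embryos, as did 10451 genes in all. The genes were chosen by their roles and with the RPKM differences between the TKO-labelled and Control embryos of this series already known, so those differences are given as descriptions and their number past a threshold supports nothing by itself.

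The endoplasmic reticulum (ER) receives secreted and membrane proteins through the Sec61 translocon, folds them with chaperones, disulfide isomerases and prolyl isomerases, and passes them to the Golgi in COPII-coated vesicles. KDEL receptors bring escaped ER residents back. Collagen chains need further steps before they leave, namely hydroxylation of prolines by P4ha and P4hb and of lysines by the Plod enzymes, and binding of the chaperone encoded by Serpinh1. In the rodent conceptus the parietal endoderm is known for this activity, because it lays down Reichert's membrane, a thick basement membrane rich in laminin and type IV collagen, while the visceral endoderm secretes serum-type proteins.

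The samples were 4 embryos labelled Tet1/2/3 TKO, for triple knockout of the 3 TET methylcytosine dioxygenases, and 4 embryos labelled Control, all of the C57BL/6 background. The labels do not say how the Tet alleles were made or whether they were deleted in all tissues, and they name no litter, sex or batch, so p-values measure the spread between these single embryos. Depth, estimated from the steps between low values, was 9.90 to 19.0 M reads (M, 1000000) in TKO-labelled embryos and 12.4 to 16.4 M reads in Control embryos. Of the targeted genes, Tet1 averaged 11.4 ± 2.82 RPKM in TKO-labelled and 5.24 ± 0.370 RPKM in Control embryos, Tet2 0.784 ± 0.172 and 0.725 ± 0.189 RPKM, and Tet3 1.38 ± 0.246 and 1.85 ± 0.155 RPKM (SD, n = 4 each). The Tet1 level was higher, not lower, in the embryos labelled as its knockout, and 1 value per gene cannot show missing exons, so they are called TKO-labelled throughout. Markers of epiblast, extraembryonic ectoderm, visceral endoderm and parietal endoderm were detected in all 8 embryos, so a level here is that of a mixture, in which fewer cells of a type and less RNA per cell cannot be told apart. TKO-labelled replicate 1 stood apart from the other 3 TKO-labelled embryos for many of the genes below and for the parietal endoderm markers, and the values without it are given for the genes whose call it changes or whose difference it moves by over 1.5 times. Control replicate 3 stood low for many of them, and values without it are given likewise. Both embryos were singled out from these same values, so a call made without either is a description and supports nothing by itself.

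The promoters of some of these genes carry known ER stress motifs, and they are shown because the motif is a readout that the expression values do not enter. Several of the genes are textbook targets of the ER stress response, so nothing is drawn from how many carry it. A RefSeq promoter window, from 250 bases before to 50 bases after a gene's start in GRCm38.p6, was found for 32 of the 40 genes, in 37 windows. The ER stress response element (ERSE, letters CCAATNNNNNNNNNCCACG, either strand) was present in 4 of the 37 windows, or 10.8%, against 39 of 32851 windows of all genes (0.119%) and 16 of 9508 windows of tested genes (0.168%). The XBP1-type element (UPRE core, letters TGACGTG, either strand) was present in 5 windows, or 13.5%, against 2.01% of all windows and 2.89% of those of tested genes. The second ER stress element (ERSE-II, letters ATTGG and CCACG with 1 base between them, either strand) was in 0 of the 37 windows, which says only that these letters are not there, and in 12 of all windows. The windows with ERSE belong to Calr, Canx, Creld2 and Pdia6, and those with the UPRE core to Kdelr3, Txndc5, Fkbp11, Sec23a and Sec24d. A match is a description of letters, not of a working site. Below are the 250 bases before the start for the 4 ERSE genes and for Kdelr3 and Txndc5, 5′ to 3′ on the gene's strand, with the motif in capitals. They lie in GRCm38.p6, Calr at chr8:84846932-84847181 (minus strand), Canx at chr11:50325674-50325923 (minus strand), Creld2 at chr15:88819396-88819645 (plus strand), Pdia6 at chr12:17266339-17266588 (plus strand), Kdelr3 at chr15:79516158-79516407 (plus strand) and Txndc5 at chr13:38527915-38528164 (minus strand).
Calr: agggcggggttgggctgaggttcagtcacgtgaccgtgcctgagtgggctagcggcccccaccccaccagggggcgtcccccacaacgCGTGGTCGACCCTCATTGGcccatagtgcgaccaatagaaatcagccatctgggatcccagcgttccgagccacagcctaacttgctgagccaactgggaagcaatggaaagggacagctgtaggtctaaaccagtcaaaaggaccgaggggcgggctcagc
Canx: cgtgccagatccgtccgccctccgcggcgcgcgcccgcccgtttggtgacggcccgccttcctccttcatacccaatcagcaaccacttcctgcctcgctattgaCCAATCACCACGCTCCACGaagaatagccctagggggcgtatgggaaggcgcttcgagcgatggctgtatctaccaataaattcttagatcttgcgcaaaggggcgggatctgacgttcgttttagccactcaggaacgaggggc
Creld2: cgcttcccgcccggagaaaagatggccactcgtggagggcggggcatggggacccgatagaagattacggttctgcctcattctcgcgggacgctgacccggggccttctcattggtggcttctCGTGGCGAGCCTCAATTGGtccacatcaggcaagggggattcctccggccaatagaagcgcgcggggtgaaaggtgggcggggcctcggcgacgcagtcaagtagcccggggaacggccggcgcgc
Pdia6: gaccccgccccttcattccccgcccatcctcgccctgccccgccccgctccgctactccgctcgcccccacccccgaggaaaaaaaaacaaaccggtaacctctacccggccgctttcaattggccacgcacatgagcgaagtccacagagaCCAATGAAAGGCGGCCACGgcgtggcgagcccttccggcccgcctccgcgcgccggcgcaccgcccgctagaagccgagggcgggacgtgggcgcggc
Kdelr3: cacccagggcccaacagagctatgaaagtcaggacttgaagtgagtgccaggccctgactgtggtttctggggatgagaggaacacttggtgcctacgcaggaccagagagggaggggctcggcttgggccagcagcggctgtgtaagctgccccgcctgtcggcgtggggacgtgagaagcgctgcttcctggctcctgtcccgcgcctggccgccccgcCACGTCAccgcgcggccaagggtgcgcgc
Txndc5: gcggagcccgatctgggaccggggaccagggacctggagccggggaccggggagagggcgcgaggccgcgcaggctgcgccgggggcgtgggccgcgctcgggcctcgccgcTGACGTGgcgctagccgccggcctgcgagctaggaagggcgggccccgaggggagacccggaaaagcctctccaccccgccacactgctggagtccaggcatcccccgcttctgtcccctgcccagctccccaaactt
The Txndc5 sequence is 1 of the 3 promoter windows of that gene. In the 4 ERSE genes the motif begins 98 to 162 bases before the start, and in Calr and Creld2 it lies on the opposite strand, so that it reads from CGTGG to ATTGG. The observed over expected CpG ratio had a median of 0.771 in the 37 windows and of 0.771 in the 9508 windows of tested genes, and it was at least 0.6 in 73.0% and 72.6% of them.

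Across the 40 genes, 38 had a higher mean level in TKO-labelled than in Control embryos on the log2(RPKM + 1) scale, and the exceptions were Fkbp11 and Sec61b. The log2 difference (mean of TKO-labelled minus mean of Control embryos) had a median of 0.40 over the 40 genes and of 0.093 over all 10451 genes tested, of which 66.5% had a positive difference. By limma with Benjamini-Hochberg adjustment over all genes tested, 0 of the 40 passed an adjusted p of 0.05 in either direction, against 0.00957% (1 gene) of all genes with higher values. An unadjusted limma p under 0.05 was reached by 19 of the 40 with higher values, against 13.9% of all genes, and by 0 with lower values, against 3.6%. The 4 TKO-labelled values lay above all 4 Control values in 6 of the 40, namely Fkbp7, P4hb, Pdia3, Txndc12, Ssr2 and Sec13, against 7.55% of all genes, and below all 4 in 0 of the 40, against 1.86%. Because the genes were chosen with this contrast known, nothing is read from these shares. Without TKO-labelled replicate 1, 4 of the 40 passed the adjusted threshold with higher values, against 0.316% of all genes, and 0 with lower values, against 0.067%. Without it, 22 of the 40 had an unadjusted limma p under 0.05 with higher values, against 13.9% of all genes, and 0 with lower values, against 3.9%, while 20 of the 40 had higher values with no overlap, against 13%, and 0 lower values with no overlap, against 3.8%. With median-ratio scaling, which moved the median difference of all genes to 0.021 and that of the 40 to 0.32, 16 of the 40 had an unadjusted limma p under 0.05 with higher values, against 8.05% of all genes, and 0 with lower values, against 6.42%, and 4 of the 40 (P4hb, Txndc12, Ssr2 and Sec13) had higher values with no overlap, against 4.07%, while 0 had lower values with no overlap, against 3.64%. With quantile normalization 4 of the 40 (Pdia3, Txndc12, Ssr2 and Sec13) had higher values with no overlap, against 3.81% of all genes. With the replicate number as a block 20 of the 40 had an unadjusted limma p under 0.05 with higher values, against 13.6% of all genes, and without TKO-labelled replicate 3 there were 12, against 13%. Leaving out Control replicate 3 moved the difference of 16 of the 40 genes by over 1.5 times or turned its sign, and leaving out any other single embryo did so for 3 to 10 of them, counts that include genes whose difference was near 0.

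**Figure D1:**
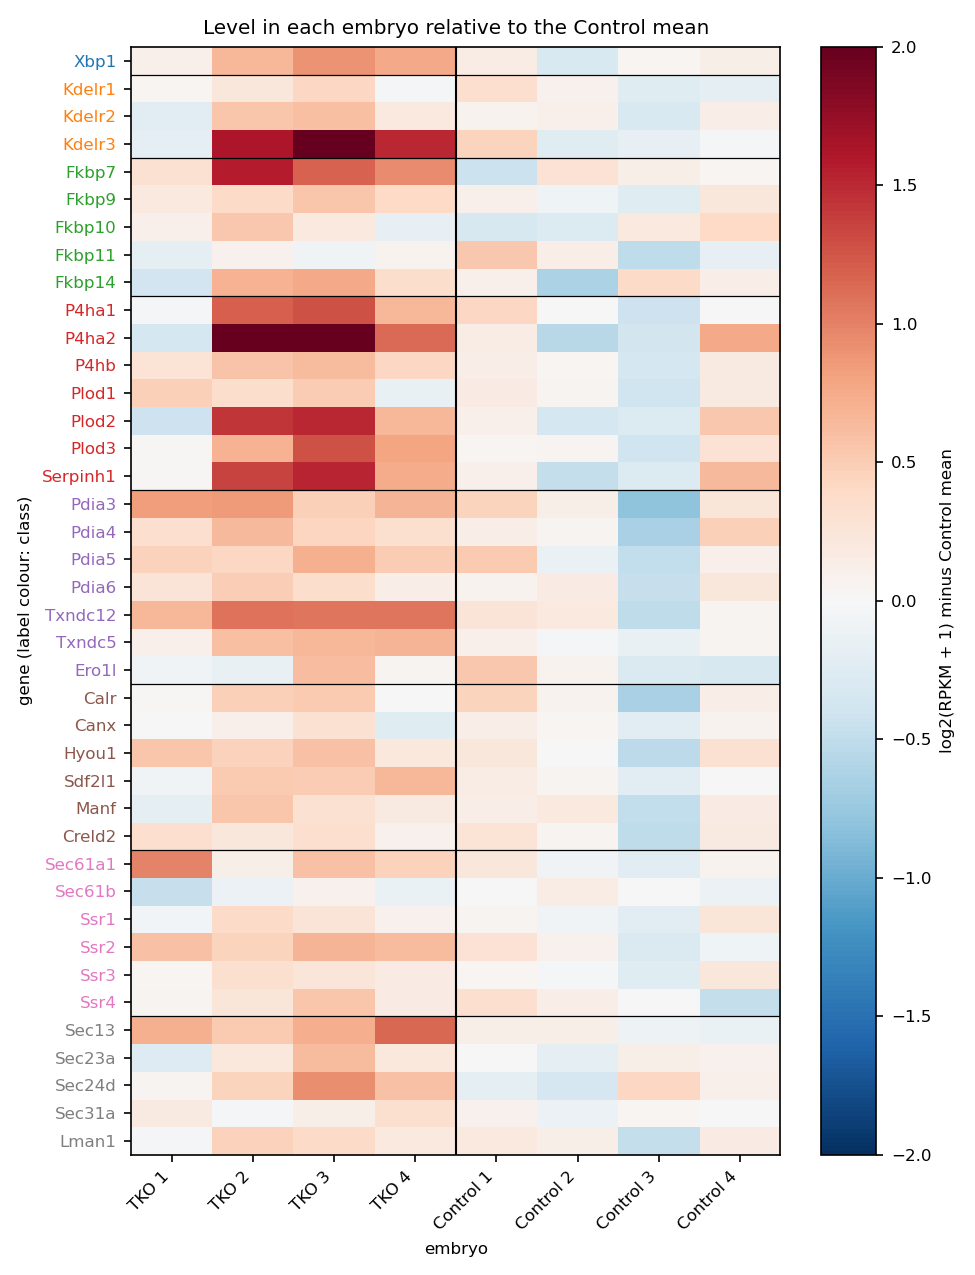
Level of each of the 40 genes in each embryo, as log2(RPKM + 1) minus the mean of the 4 Control embryos, with colours ending at 2 and -2. TKO-labelled replicates 2 to 4 are red for most collagen enzymes, Kdelr3 and Xbp1, while TKO-labelled replicate 1 is near the Control level for them and Control replicate 3 is blue for most isomerases and chaperones.

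**Figure D2:**
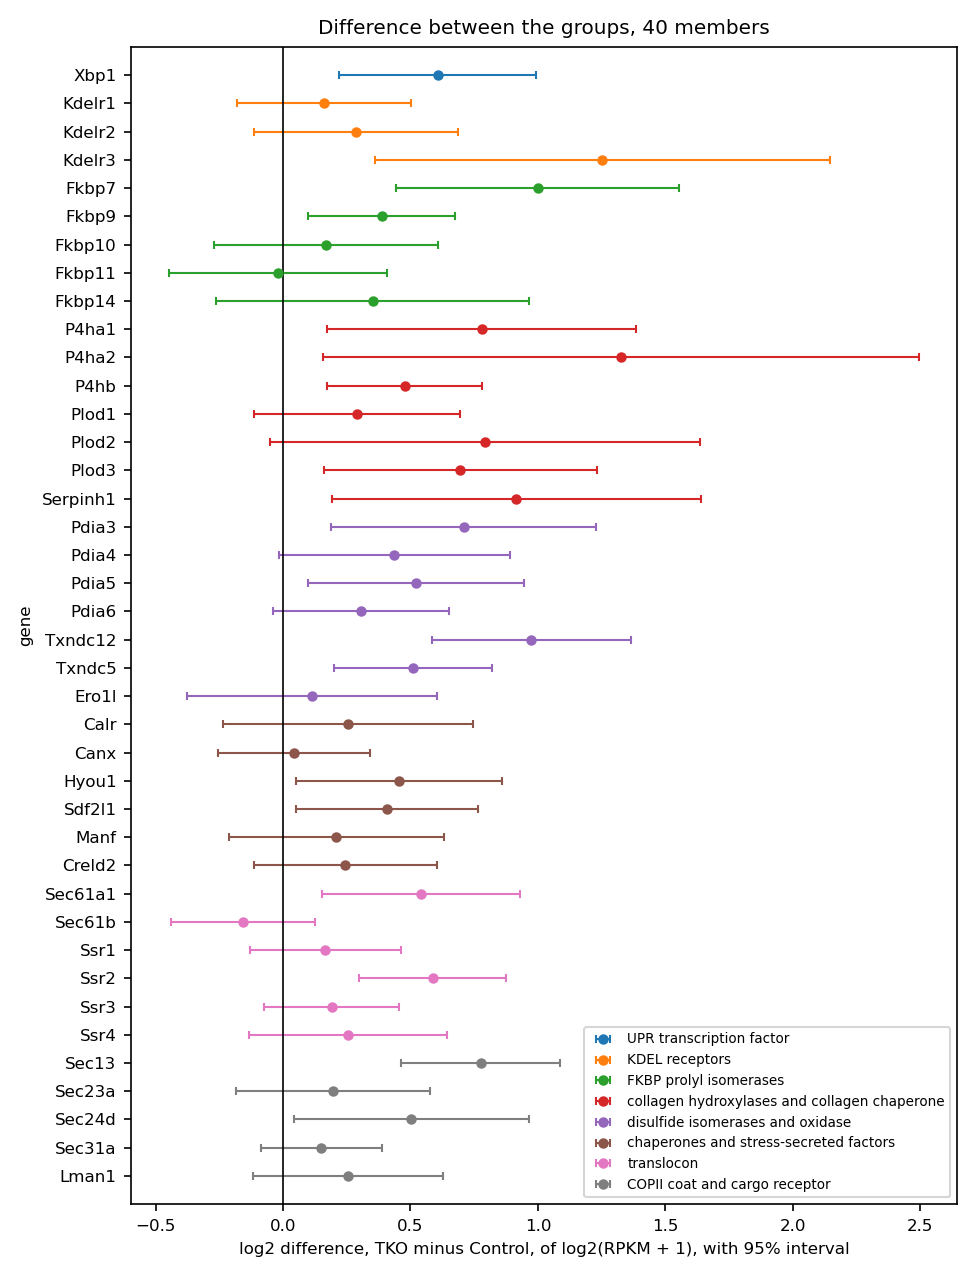
Log2 difference, TKO-labelled minus Control, with its 95% confidence interval from limma, for the 40 genes (4 embryos a group). The interval lies above 0 for 19 genes and below 0 for none, and the widest is that of P4ha2.

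Among the collagen hydroxylases, P4ha2 had the largest difference and the largest standard error of the 40 genes, whereas P4hb and Plod1 had smaller ones. P4ha2, a catalytic subunit of prolyl 4-hydroxylase, had 4.00, 27.5, 32.4 and 13.0 RPKM in TKO-labelled replicates 1 to 4, against 6.12, 3.37, 3.96 and 9.88 RPKM in Control replicates 1 to 4. Replicates 2 to 4 of the TKO-labelled embryos thus lay above every Control embryo, and replicate 1 lay inside the Control range. Its log2 difference was 1.33 (SE 0.53, 95% interval 0.16 to 2.50, limma adjusted p = 0.241), and 1.89 without TKO-labelled replicate 1 (limma adjusted p = 0.0722, and 0.0722 to 0.473 over all alternatives). P4ha1, the other main catalytic subunit, had 10.9, 26.6, 28.0 and 18.1 RPKM in TKO-labelled embryos, against 15.1, 10.99, 7.98 and 11.1 RPKM in Control embryos, with the same embryo inside the Control range (log2 difference 0.78, SE 0.27, limma adjusted p = 0.212). P4hb, the disulfide isomerase that forms the beta subunit of that enzyme, had 165, 204, 213 and 182 RPKM in TKO-labelled embryos, against 149, 140, 107 and 155 RPKM in Control embryos. Here the groups did not overlap, at a ratio of means of 1.39 (log2 difference 0.48, SE 0.14, limma adjusted p = 0.173).

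Of the 3 lysyl hydroxylases, Plod2, which acts on the telopeptide lysines of collagen, had 6.79, 27.0, 28.6 and 15.4 RPKM in TKO-labelled embryos, against 10.1, 7.15, 7.62 and 14.1 RPKM in Control embryos. Its lowest value of all 8 embryos was in TKO-labelled replicate 1 and its 3 highest in the others (log2 difference 0.79, SE 0.38, limma adjusted p = 0.314). Without that embryo the Plod2 difference was 1.20 (limma adjusted p = 0.0934, and 0.0934 to 0.512 over all alternatives). Plod3, which also adds sugars to hydroxylysine, had 4.70, 8.14, 12.6 and 8.77 RPKM in TKO-labelled embryos, against 4.78, 4.87, 3.30 and 5.92 RPKM in Control embryos (0.70, SE 0.24, limma adjusted p = 0.209). Plod1 lay lower, at 2.17 to 3.98 RPKM in TKO-labelled and 1.67 to 2.99 RPKM in Control embryos, with overlapping groups and a difference of 0.29 (SE 0.18, limma adjusted p = 0.429), or 0.16 without Control replicate 3. Unlike Plod2, Plod1 had its lowest TKO-labelled value in replicate 4. Serpinh1, the collagen-specific chaperone, had 22.0, 56.8, 64.1 and 36.8 RPKM in TKO-labelled embryos, against 23.3, 15.3, 17.6 and 34.2 RPKM in Control embryos. The TKO-labelled mean was 1.99 times the Control mean (log2 difference 0.91, SE 0.33, limma adjusted p = 0.215), yet replicate 1 lay just below the Control mean of 22.6 RPKM and replicate 4 just above the highest Control embryo.

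**Figure D3:**
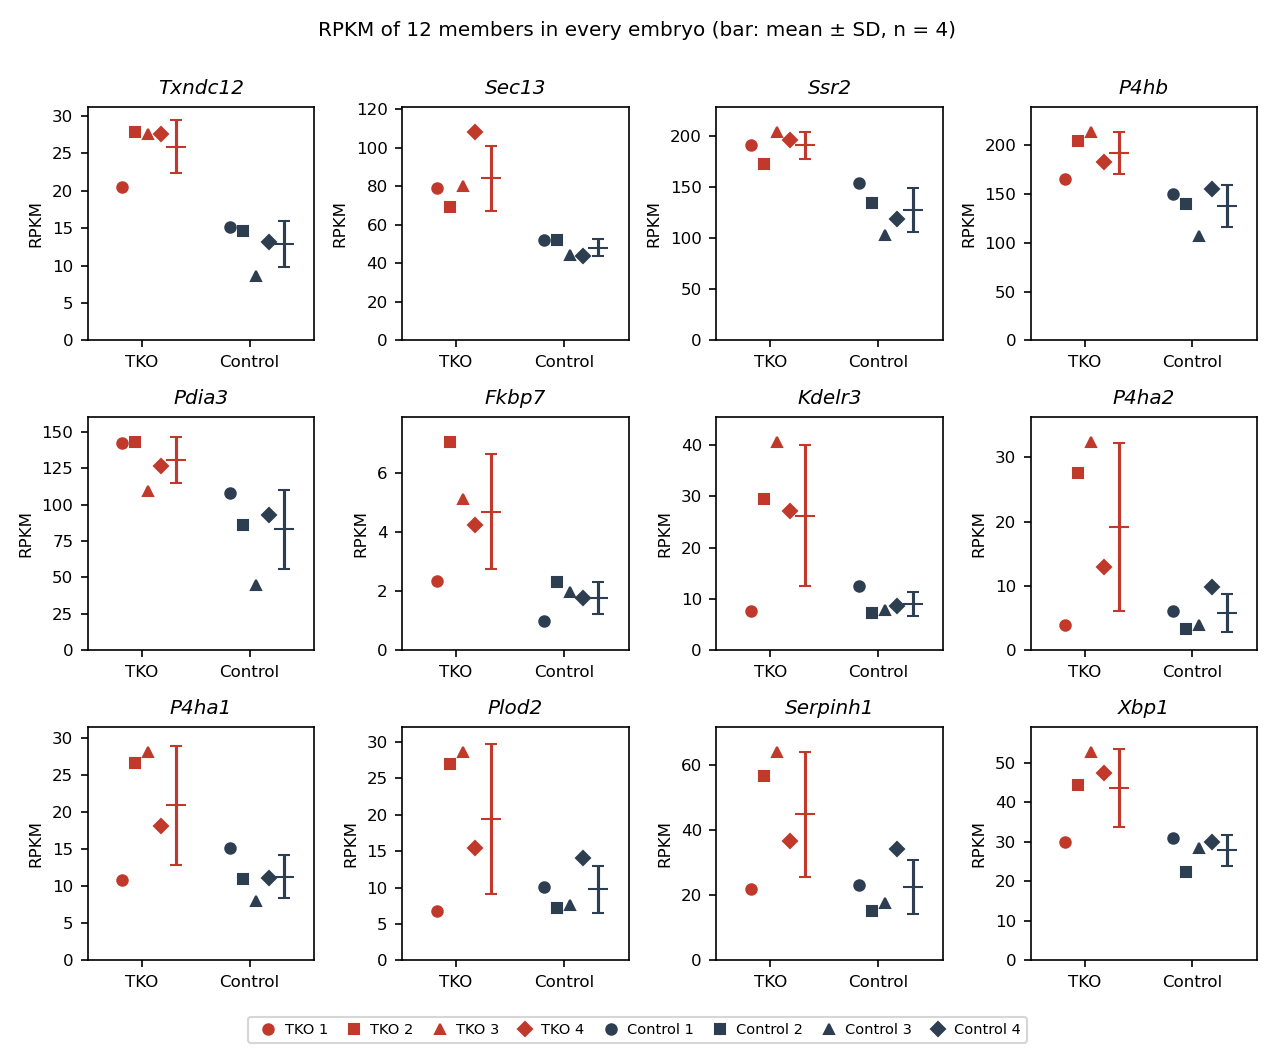
RPKM of 12 genes in every embryo, on axes that start at 0, with the mean and SD of each group beside the points (n = 4 each). In the first 6 panels the groups do not overlap, and in the other 6 TKO-labelled replicate 1 (circle) lies among the Control embryos, or below them for Plod2, while replicates 2 to 4 lie above all of them.

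Among the KDEL receptors, none of the 3 passed the adjusted threshold with all embryos, and only Kdelr3 did without TKO-labelled replicate 1. Kdelr3 had 7.63, 29.5, 40.6 and 27.2 RPKM in TKO-labelled embryos, against 12.5, 7.33, 7.81 and 8.65 RPKM in Control embryos. TKO-labelled replicates 2 to 4 were above every Control embryo and replicate 1 was below 3 of the 4. The log2 difference was 1.25 (SE 0.40, limma adjusted p = 0.189) in all embryos, and 1.73 (limma adjusted p = 0.0170, and 0.0170 to 0.999 over all alternatives) without replicate 1. Exons of Kdelr3 overlap those of Ddx17 on the other strand, whose reads may enter its value. Kdelr2 had a higher level, at 40.1, 68.2, 71.2 and 53.2 RPKM in TKO-labelled and 48.5, 49.7, 37.5 and 50.9 RPKM in Control embryos, and a smaller difference (0.29, SE 0.18, limma adjusted p = 0.433). The Kdelr2 difference was 0.45 without TKO-labelled replicate 1, 0.19 without Control replicate 3 and 0.18 without TKO-labelled replicate 3. Kdelr1 had 10.99 to 15.4 RPKM in TKO-labelled and 9.45 to 14.5 RPKM in Control embryos (0.16, SE 0.15, limma adjusted p = 0.614), and its difference was 0.080 without Control replicate 3. Whether the 3 receptors differ from each other in response was not tested.

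Xbp1, a transcription factor of the unfolded protein response whose messenger is spliced during ER stress, had 29.8, 44.3, 52.7 and 47.5 RPKM in TKO-labelled embryos, against 30.9, 22.3, 28.3 and 30.1 RPKM in Control embryos. Replicates 2 to 4 again lay above every Control embryo and replicate 1 among them. The log2 difference was 0.61 (SE 0.18, 95% interval 0.22 to 0.99, limma adjusted p = 0.173), and 0.77 without TKO-labelled replicate 1 (limma adjusted p = 0.0525, and 0.0525 to 0.765 over all alternatives). A single value per gene does not show how much of the Xbp1 messenger was spliced.

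The FKBP genes encode prolyl isomerases of the ER, of which those of Fkbp10 and Fkbp14 are known to act on collagen. Fkbp7, at low levels, had 2.36, 7.06, 5.13 and 4.26 RPKM in TKO-labelled embryos, against 1.01, 2.31, 1.96 and 1.78 RPKM in Control embryos. The groups did not overlap, but replicate 1 lay just above the highest Control embryo (log2 difference 1.00, SE 0.25, limma adjusted p = 0.156, and 1.23 with adjusted p = 0.0434 without that embryo, and 0.0434 to 0.466 over all alternatives). Fkbp9 had 19.4, 22.2, 25.2 and 22.5 RPKM in TKO-labelled embryos, against 18.1, 15.7, 14.0 and 19.9 RPKM in Control embryos (0.39, SE 0.13, limma adjusted p = 0.2003). Fkbp11 was the most abundant of the family, at 71.3 to 86.2 RPKM in TKO-labelled and 56.5 to 118 RPKM in Control embryos, and its difference was -0.02 (SE 0.19, limma adjusted p = 0.967), or 0.03 without TKO-labelled replicate 1 and -0.19 without Control replicate 3. Fkbp10 had 1.83 to 3.57 RPKM in TKO-labelled and 1.53 to 3.15 RPKM in Control embryos. Fkbp14, the lowest of the 40 genes in Control embryos, had 0.572 to 2.46 RPKM in TKO-labelled and 0.329 to 1.67 RPKM in Control embryos. The groups overlapped for both of these collagen-related isomerases, with differences of 0.17 (SE 0.20) and 0.35 (SE 0.28) and limma adjusted p-values of 0.686 and 0.532. Without TKO-labelled replicate 1 the Fkbp14 difference was 0.60.

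Besides P4hb, the disulfide isomerases Txndc12 and Pdia3 had a level above every Control embryo in all 4 TKO-labelled embryos. Pdia6 had such a level in TKO-labelled replicate 1 but not in replicate 4. Txndc12, a thioredoxin-like ER protein, had 20.6, 27.9, 27.6 and 27.6 RPKM in TKO-labelled embryos, against 15.2, 14.6, 8.55 and 13.2 RPKM in Control embryos, a ratio of means of 2.01 with no overlap. Its log2 difference was 0.97 (SE 0.18, 95% interval 0.58 to 1.36, limma adjusted p = 0.120), and 1.08 without replicate 1 (limma adjusted p = 0.0434, and 0.0434 to 0.339 over all alternatives). Pdia3, which forms disulfides in glycoproteins held by calnexin and calreticulin, had 142, 143, 109.6 and 126 RPKM in TKO-labelled embryos, against 108, 85.9, 44.6 and 93.2 RPKM in Control embryos. The groups did not overlap, although the gap between the highest Control and the lowest TKO-labelled embryo was small (0.71, SE 0.24, limma adjusted p = 0.198). Without Control replicate 3 the Pdia3 difference was 0.44. Txndc5, another thioredoxin-type isomerase, had 30.3, 43.4, 45.01 and 45.6 RPKM in TKO-labelled embryos, against 30.4, 27.8, 25.4 and 29.2 RPKM in Control embryos, so that replicate 1 alone of the TKO-labelled embryos lay inside the Control range. Its log2 difference was 0.51 (SE 0.14, limma adjusted p = 0.166), and 0.65 without that embryo (limma adjusted p = 0.0412, and 0.0412 to 0.627 over all alternatives). Its exons overlap those of Bmp6 on the other strand.

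The remaining isomerases and the oxidase overlapped between groups. Pdia5 had 10.9 to 13.7 RPKM in TKO-labelled and 5.40 to 11.9 RPKM in Control embryos (0.52, SE 0.19, limma adjusted p = 0.221). Pdia4 had 46.0 to 58.1 RPKM in TKO-labelled and 22.9 to 51.1 RPKM in Control embryos (0.44, SE 0.21, limma adjusted p = 0.304), and Pdia6 had 151 to 194 RPKM in TKO-labelled and 100.2 to 162 RPKM in Control embryos (0.31, SE 0.16, limma adjusted p = 0.333). For all 3, as for Pdia3 and Txndc12, Control replicate 3 had the lowest value of the 8 embryos, as it did in 22.0% of all genes tested. Without it the differences were 0.36 for Pdia5, 0.22 for Pdia4, 0.15 for Pdia6 and 0.80 for Txndc12. Ero1l, the oxidase that recharges the isomerases, had 6.20, 5.79, 10.6 and 6.86 RPKM in TKO-labelled embryos, against 10.02, 6.90, 5.18 and 5.05 RPKM in Control embryos, with no separation (0.11, SE 0.22, limma adjusted p = 0.819, with 0.17 without TKO-labelled replicate 1 and 0.017 without Control replicate 3).

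The chaperones and the factors secreted under ER stress had differences from 0.04, for Canx, to 0.46, for Hyou1. Hyou1, which exchanges nucleotide on the ER chaperone BiP, had 6.03, 5.59, 6.15 and 4.55 RPKM in TKO-labelled embryos, against 4.60, 3.76, 2.31 and 4.89 RPKM in Control embryos (0.46, SE 0.18, limma adjusted p = 0.243). Sdf2l1, a partner of ER chaperones of the DnaJ family, had 15.4, 23.7, 23.4 and 26.3 RPKM in TKO-labelled embryos, against 18.02, 16.8, 13.9 and 16.4 RPKM in Control embryos (0.41, SE 0.16, limma adjusted p = 0.239), with replicate 1 inside the Control range. The lectin chaperones Calr and Canx overlapped widely. Calr had 123 to 179.8 RPKM in TKO-labelled and 79.0 to 171 RPKM in Control embryos (0.25, SE 0.22, limma adjusted p = 0.574), and Canx 182 to 267 RPKM in TKO-labelled and 184 to 235 RPKM in Control embryos (0.04, SE 0.13, limma adjusted p = 0.894). Manf had 70.1 to 118 RPKM in TKO-labelled and 56.7 to 91.8 RPKM in Control embryos (0.21, SE 0.19), and Creld2 had 50.6 to 60.4 RPKM in TKO-labelled and 33.2 to 57.7 RPKM in Control embryos (0.24, SE 0.16). In 5 of these 6 genes, Canx being the exception, Control replicate 3 was the lowest of the 8 embryos. The same embryo was the lowest of the 8 in 24 of the 40 genes, or 60%, against 22.0% of all genes tested. Without it the differences were 0.28 for Hyou1, 0.34 for Sdf2l1, 0.038 for Calr, -0.034 for Canx, 0.044 for Manf and 0.075 for Creld2. Without TKO-labelled replicate 1 the Manf difference was 0.34. The genes with ERSE in the promoter shown above, Calr, Canx, Creld2 and Pdia6, had differences of 0.04 to 0.31, and of -0.034 to 0.15 without Control replicate 3. The 16 tested genes with that element included Hspa5, Hsp90b1, Dnajc3, Derl3 and Syvn1 of the unfolded protein response. Over all 16 the median was 0.18, against 0.093 over all genes tested, and 14 were positive, against 66.5%. Of these 16 genes 0 passed the adjusted threshold, against 0.00957% of all genes with higher values. The genes with the UPRE core had differences of -0.02 for Fkbp11, 0.20 for Sec23a, 0.50 for Sec24d, 0.51 for Txndc5 and 1.25 for Kdelr3. Whether either motif goes with the differences was not tested.

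In the translocon, differences of both signs were present. Ssr2, a subunit of the translocon-associated protein complex, had 191, 172, 204 and 196 RPKM in TKO-labelled embryos, against 154, 135, 103 and 119 RPKM in Control embryos. All 4 TKO-labelled embryos lay above all Control embryos (0.59, SE 0.13, 95% interval 0.30 to 0.88, limma adjusted p = 0.136). Sec61a1, the pore subunit, had 61.9, 33.4, 46.8 and 42.8 RPKM in TKO-labelled embryos, against 36.0, 29.3, 26.1 and 32.3 RPKM in Control embryos. Here replicate 1 was the highest of the 8 embryos and replicate 2 lay inside the Control range (0.54, SE 0.18, limma adjusted p = 0.191). Sec61b, the small subunit, was the most abundant of the 40 genes, at 319, 406, 464 and 401 RPKM in TKO-labelled and 439, 485, 435 and 403 RPKM in Control embryos, and its difference was negative (-0.16, SE 0.13, limma adjusted p = 0.542). Ssr1, Ssr3 and Ssr4, the other subunits of the Ssr complex, had differences of 0.17, 0.19 and 0.25 (limma adjusted p = 0.539, 0.433 and 0.475), and their groups overlapped. Without Control replicate 3 those of Ssr1 and Ssr3 were 0.090 and 0.11. The Sec61b difference was -0.057 without TKO-labelled replicate 1.

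Among the 5 COPII and cargo genes, Sec13 had the largest difference. Sec13, which forms the outer vesicle coat with Sec31a and is also part of the nuclear pore, had 78.9, 69.2, 79.8 and 108 RPKM in TKO-labelled embryos, against 52.0, 52.0, 44.5 and 43.9 RPKM in Control embryos. Every TKO-labelled embryo lay above every Control embryo, at a ratio of means of 1.75 (0.78, SE 0.14, 95% interval 0.46 to 1.09, limma adjusted p = 0.120). Its coat partner Sec31a had 23.6, 20.3, 22.6 and 26.1 RPKM in TKO-labelled embryos, against 22.1, 19.0, 21.2 and 20.7 RPKM in Control embryos (0.15, SE 0.11, limma adjusted p = 0.490). Sec24d, a cargo-binding subunit of the inner coat, had 3.92, 5.48, 8.01 and 6.09 RPKM in TKO-labelled embryos, against 3.15, 2.77, 5.31 and 4.09 RPKM in Control embryos (0.50, SE 0.21, limma adjusted p = 0.253). Its partner Sec23a had 8.86 to 17.4 RPKM in TKO-labelled and 9.40 to 11.8 RPKM in Control embryos (0.20, SE 0.17, limma adjusted p = 0.579), and its difference was 0.35 without TKO-labelled replicate 1 and 0.050 without TKO-labelled replicate 3. Lman1, a lectin that carries glycoproteins out of the ER, had 20.8 to 29.4 RPKM in TKO-labelled and 14.9 to 24.3 RPKM in Control embryos (0.26, SE 0.17, limma adjusted p = 0.451), or a difference of 0.097 without Control replicate 3.

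In 14 of the 40 genes, or 35%, TKO-labelled replicates 2 to 4 lay above every Control embryo while replicate 1 did not, against 5.42% of all genes tested. These were Xbp1, Kdelr2, Kdelr3, Fkbp9, P4ha1, P4ha2, Plod2, Plod3, Serpinh1, Txndc5, Sdf2l1, Sec23a, Sec24d and Lman1. The pattern was named after the values were seen, and is a description without a test. Markers of the parietal endoderm took the same order. Of 16 listed symbols 14 were in the table, none of which was at 0 in any embryo, and 13 passed the filter. The summed level of the 14 was 274, 724, 949.8 and 619 RPKM in TKO-labelled replicates 1 to 4, against 269.7, 164, 218 and 322 RPKM in Control replicates 1 to 4. On the mean log2 scale the 13 markers that passed were at 3.38, 5.04, 5.44 and 4.71 in TKO-labelled and 3.43, 2.88, 3.08 and 3.89 in Control embryos. The 6 hydroxylase subunits and Serpinh1 together were at 3.65, 4.76, 4.95 and 4.26 in TKO-labelled and 3.81, 3.47, 3.30 and 4.02 in Control embryos. In both, the order from high to low was the same among TKO-labelled embryos, and the highest Control embryo was replicate 4. That TKO-labelled order was not particular to the collagen class. The mean of all 40 genes had it too, at 4.69, 5.16, 5.27 and 4.98 in TKO-labelled replicates 1 to 4. So did the KDEL receptors, disulfide isomerases, chaperones and translocon, but not the FKBP and COPII classes. Visceral endoderm markers, all 19 of which were tested, were instead highest in Control replicate 1, at 6.59, and lay at 5.83 to 6.33 in TKO-labelled and 5.19 to 6.59 in Control embryos. Control replicate 3 was the lowest of the 4 Control embryos for 25 of the 40 genes (62.5%, against 34.7% of all genes tested). It had the highest summed level of the 12 listed markers of decidua, a maternal tissue, at 414 RPKM. TKO-labelled replicate 3, which had the highest mean log2 level of the 40 genes (5.27), was next by this sum at 395 RPKM. TKO-labelled replicates 1, 2 and 4 had 40.1, 31.6 and 72.5 RPKM, and Control replicates 1, 2 and 4 had 207, 15.7 and 258 RPKM. On the mean log2 scale, over the 7 decidua markers that passed the filter, the order was different. Control replicates 3 and 4 were at 4.11 and 3.43, and TKO-labelled replicate 3 was at 3.37. Of the 12 decidua markers, Lum and Postn were under 1 RPKM in every embryo. Epiblast markers had their highest summed level in TKO-labelled replicate 1, at 1056 RPKM, in ranges of 563 to 1056 RPKM over TKO-labelled and 499.7 to 735 RPKM over Control embryos. Estimated depth was 9.90, 14.2, 19.0 and 11.7 M reads in TKO-labelled replicates 1 to 4, the same order as the mean of all 40 genes. In Control replicates 1 to 4 it was 16.4, 14.85, 12.4 and 14.3 M reads, lowest in replicate 3. The part of depth and of the decidua and epiblast levels in the results was not tested.

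**Figure D4:**
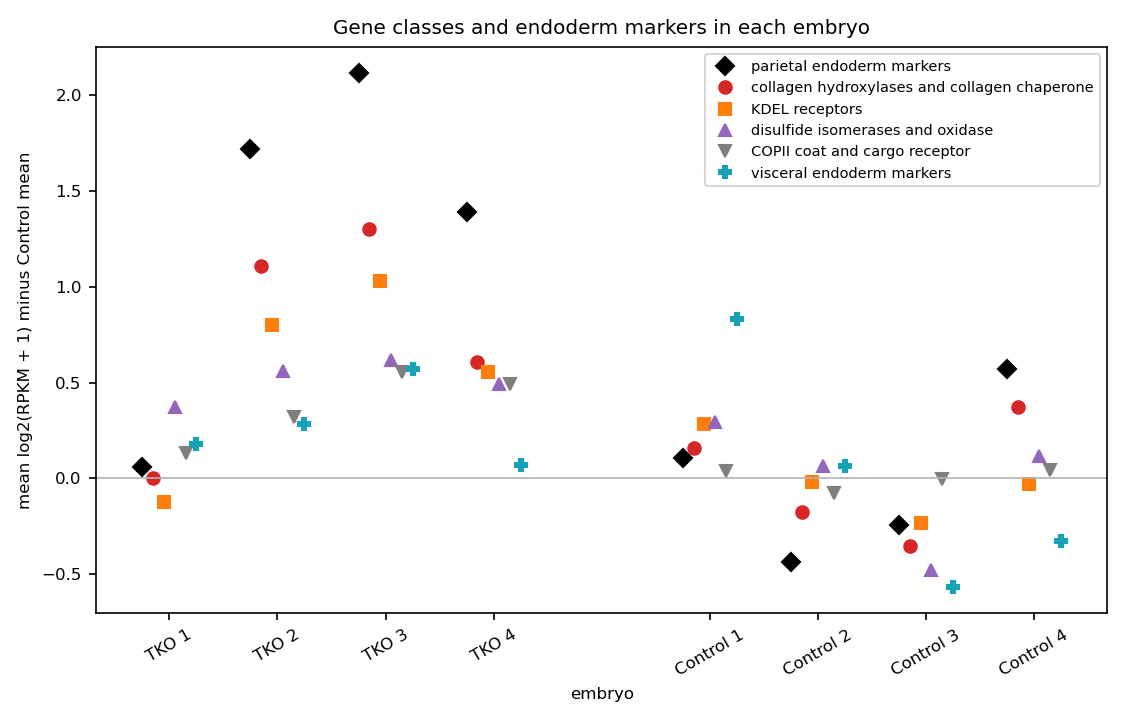
Mean log2(RPKM + 1) of gene classes and of endoderm markers in each embryo, minus the mean of the 4 Control embryos. Parietal endoderm markers, the collagen class and the KDEL receptors are high in TKO-labelled replicates 2 to 4 and near 0 in replicate 1. The disulfide isomerase class, the COPII class and the visceral endoderm markers lie above 0 in all 4 TKO-labelled embryos. For the isomerase class, Control replicate 3 is the lowest embryo.

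When the mean level of the parietal endoderm markers was added to the fit as a covariate, the differences of the 40 genes moved unevenly. The median difference over them was 0.037 with the covariate and 0.40 without it, and that over all genes tested was 0.077 with it and 0.093 without it. Kdelr3 moved to 0.00, P4ha1 to 0.02, Plod3 to 0.00, Serpinh1 to -0.16, P4ha2 to -0.47, Plod2 to -0.48 and Xbp1 to 0.12. Among the larger differences, those of Sec13 at 0.83, Sec61a1 at 0.78, Pdia3 at 0.70 and Ssr2 at 0.58 were as large or nearly as large with the covariate, as among the smaller ones were Sec31a at 0.18 and Plod1 at 0.24. The negative ones lay further below 0, with Sec61b at -0.36 and Fkbp11 at -0.13, while Txndc12 was at 0.70 and Fkbp7 at 0.53. With the covariate 0 of the 40 passed the adjusted threshold by limma, where the lowest adjusted p was 0.212, for Sec13, and 4 had higher and 2 lower values at an unadjusted p under 0.05, against 10.7% and 3.95% of all genes, of which 0.0191% passed the adjusted threshold with higher values. The covariate comes from the same 8 embryos and moves with the labels, so that a difference between the groups and a difference in parietal endoderm level cannot be told apart here.

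**Figure D5:**
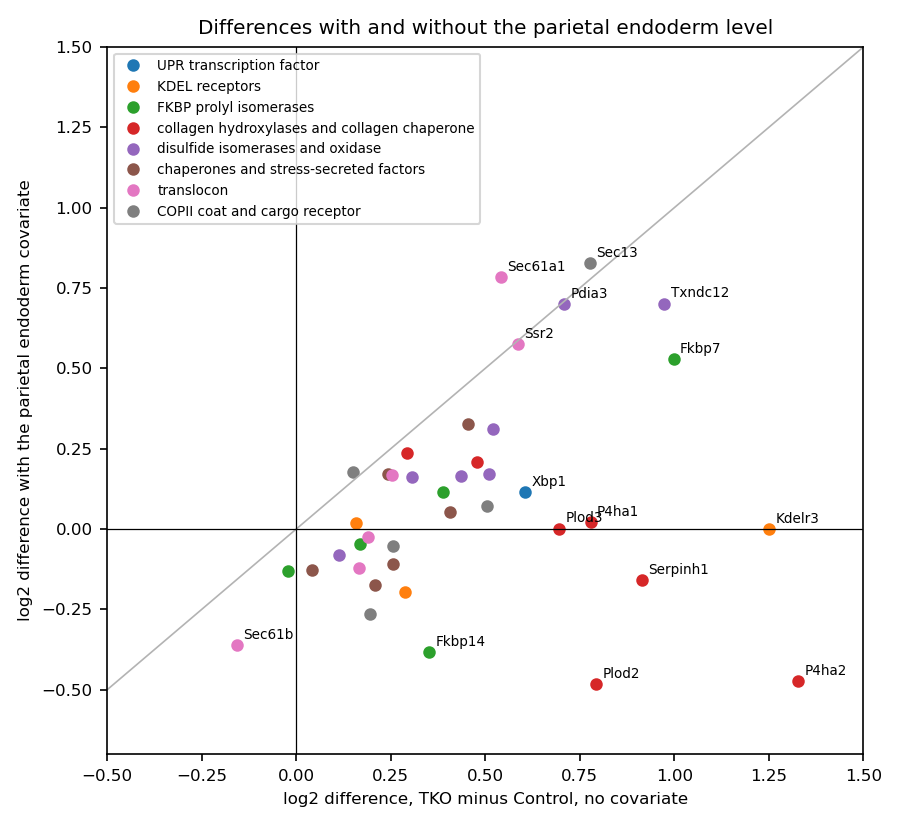
Log2 difference of each of the 40 genes without (horizontal axis) and with (vertical axis) the parietal endoderm covariate, where the grey line marks equal values. Sec13, Sec61a1, Pdia3 and Ssr2 lie on or near the line, and Kdelr3, P4ha1, P4ha2, Plod2, Plod3 and Serpinh1 lie at or below 0 or just above it on the vertical axis.

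Other genes of the pathway were read from lists of known pathway genes, none of which shares a symbol with the 40. Their counts stand beside 66.5% of all genes tested with a positive difference and 13.9% with higher values at an unadjusted limma p under 0.05. In the list of the unfolded protein response and ER-associated degradation, 0 of 30 tested genes passed the adjusted threshold by limma, 20 were positive, 3 had higher values at that unadjusted p, and the median difference was 0.12. Its genes with the smallest p were Edem2, which passes misfolded glycoproteins on for degradation, at a mean of 8.15 RPKM in TKO-labelled and 6.01 RPKM in Control embryos (0.41, limma adjusted p = 0.215), and the membrane-bound transcription factor Creb3l1, at 4.12 and 2.19 RPKM (0.65, limma adjusted p = 0.220). For ER entry, with 27 tested genes, the median was 0.17, 22 were positive, 7 had higher values at the unadjusted p, and 0 passed. Sec61a2, a paralog of the pore subunit, averaged 19.8 RPKM in TKO-labelled and 13.8 RPKM in Control embryos (0.50, limma adjusted p = 0.156), and Srprb, of the signal recognition particle receptor, 21.1 and 14.8 RPKM (0.50, limma adjusted p = 0.164). For ER folding and glycoprotein quality control, with 30 tested genes, the median was 0.18, 23 were positive, 3 had higher values at the unadjusted p, and 0 passed. The calcium-binding Rcn3 averaged 21.5 RPKM in TKO-labelled and 13.1 RPKM in Control embryos (0.75, limma adjusted p = 0.181), and Txndc11 3.13 and 2.06 RPKM (0.42, limma adjusted p = 0.185).

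Genes of COPII, COPI and the cargo carriers between ER and Golgi had a median difference of 0.24, with 26 of 29 tested genes positive, 12 with higher values at an unadjusted limma p under 0.05 and 0 past the adjusted threshold. Cope, a subunit of the COPI coat, had 90.6, 79.0, 100.04 and 108 RPKM in TKO-labelled embryos, against 71.3, 56.0, 60.8 and 62.1 RPKM in Control embryos (0.58, limma adjusted p = 0.132). Surf4, a cargo receptor, averaged 51.6 RPKM in TKO-labelled and 36.9 RPKM in Control embryos (0.49, limma adjusted p = 0.156). The other collagen-modifying enzymes had a median of 0.23 over 11 tested genes, of which 10 were positive, 2 had higher values at the unadjusted p, and 0 passed. Glt25d1, which adds galactose to collagen, had 18.6, 21.5, 30.6 and 21.6 RPKM in TKO-labelled embryos, against 16.7, 12.02, 11.02 and 14.5 RPKM in Control embryos (0.72, limma adjusted p = 0.145). Leprel4, known to assist lysyl hydroxylation of collagen in mouse, averaged 3.85 RPKM in TKO-labelled and 1.62 RPKM in Control embryos (0.82, limma adjusted p = 0.160).

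Of the collagen chains themselves only 4 of 22 listed passed the filter, of which 3 were positive, 2 had higher values at the unadjusted p and 0 passed the adjusted threshold with all 8 embryos. Col4a1 and Col4a2, which form the type IV collagen of basement membranes and were also among the parietal endoderm markers, were the 2 with the smallest p. Col4a1 had 16.1, 67.5, 83.3 and 47.8 RPKM in TKO-labelled embryos, against 21.5, 10.7, 12.04 and 25.1 RPKM in Control embryos (1.43, limma adjusted p = 0.182, and 1.92 with adjusted p = 0.0343 without TKO-labelled replicate 1, and 0.0343 to 0.816 over all alternatives). Col4a2 had 7.496, 26.0, 42.0 and 26.6 RPKM in TKO-labelled embryos, against 9.36, 4.91, 6.96 and 10.1 RPKM in Control embryos (1.41, limma adjusted p = 0.174, and 1.89 with adjusted p = 0.0224 without that embryo, and 0.0224 to 0.973 over all alternatives). Both were low in TKO-labelled replicate 1, as P4ha2 and Plod2 were. Genes induced by hypoxia, a condition known to raise P4ha1, P4ha2, Plod2 and Ero1l, had a median of -0.09 over 20 tested genes, of which 8 were positive. At the unadjusted p 0 had higher and 1 lower values, against 13.9% and 3.6% of all genes, and 0 passed the adjusted threshold. The part of hypoxia in any of these levels was not tested. Among them Egln1, a hydroxylase that senses oxygen, averaged 9.43 RPKM in TKO-labelled and 13.2 RPKM in Control embryos (-0.46, limma adjusted p = 0.181), and Pfkfb3, a regulator of glycolysis, 0.758 and 1.28 RPKM (-0.36, limma adjusted p = 0.314).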

How the data were processed

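RNA of 4 TKO-labelled and 4 Control embryos was analysed. The deposited table gives RPKM per gene symbol and embryo, computed by the authors, a unit read from the table's name and from values that are not whole. Per the labels' protocols, cDNA was made with the SMARTer kit and libraries with Nextera XT. Per the submitters' processing notes, HTSeq (no version) and mm9 were used. Not given in the sources used here are the aligner, gene models, read total and use of strand. Depth was estimated from the steps of low values of genes with 1 transcript in GENCODE M21, where 47.2% to 55.7% of low values came out at 1 to 10 whole reads within 2%, so whole reads could not be recovered for a count test. Exons of 8 of the 40 genes (Fkbp14, Kdelr3, Manf, Pdia3, Pdia4, Pdia6, Plod3 and Txndc5) overlap another gene of the table in GENCODE M21, and without known strand use such reads cannot be told apart.

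Groups were compared with limma 3.58.1 (R 4.3.3) applied to log2(RPKM + 1) with a variance trend, fitted to all 10451 genes with at least 1 RPKM in at least 4 embryos, with Benjamini-Hochberg adjustment, a threshold of 0.05 and no covariate. The log2 difference on this scale understates the change of low genes. The script was tested on simulated data. Alternatives were 16: another pseudocount, 2 filters, 2 scalings, 2 covariates, a replicate block and leaving out each embryo. Members, classes and lists were chosen with earlier results of these data known. All 40 members are named, and each pathway list is represented by its genes past the threshold or, where none passed, by 2 genes of lowest p. Same-numbered embryos of the 2 groups were not treated as pairs. Promoters are RefSeq windows of GRCm38.p6, matched by symbol or, for Ero1l, by its newer symbol; no coordinates of mm9 are given.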

Additional observations from a re-analysis of the deposited data

Results flagged for a closer look

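Among the 80 groups of 4 values (40 genes in each group of embryos), 4 held an embryo whose gap to the nearest of the others exceeded Dixon's 95% critical share of the group's range, or 5%, which is about the share of 1 in 20 that chance gives. TKO-labelled replicate 1 stood low for Txndc12, at 20.6 RPKM against 27.6 to 27.9 RPKM in the other TKO-labelled embryos, and for Txndc5, at 30.3 RPKM against 43.4 to 45.6 RPKM. Control replicate 3 stood low for Manf, at 56.7 RPKM against 88.7 to 91.8 RPKM in the other Control embryos, and for Lman1, at 14.9 RPKM against 23.1 to 24.3 RPKM.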

How the results depend on the processing

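With all 8 embryos, 0 of the 40 genes passed the adjusted limma threshold under each alternative that kept all 8, and over the fits that left out 1 embryo the count was 0 to 4, the 4 being without TKO-labelled replicate 1, where Kdelr3 was at 1.73, Fkbp7 at 1.23, Txndc12 at 1.08 and Txndc5 at 0.65. Genes with higher values at an unadjusted limma p under 0.05 were 19 in the main comparison (13.9% of all genes) and 4 with the parietal endoderm covariate (10.7%). Over the fits without 1 embryo they were 12 to 22, lowest without TKO-labelled replicate 3, where 13% of all genes had them. Genes with higher values and no overlap of the groups were 6, where 7.55% of all genes had none. They were 4 with median-ratio scaling (4.07% of all genes) and 4 with quantile normalization (3.81%). Without 1 embryo they were 6 to 20, the 20 being without TKO-labelled replicate 1 (13% of all genes). Leaving out an embryo makes such separation easier for every gene. For the strict filter, with 5, and the other embryos left out, no share of all genes is given, so nothing is read from those counts. This count was not made in the fits with a covariate or block. The median difference over the 40 was 0.40 on the log2 scale, 0.037 under that covariate, and 0.29 (without Control replicate 3) to 0.45 without 1 embryo. The strict filter left 35 genes.

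Directions changed mainly with the parietal endoderm covariate, in 14 genes: Kdelr2 -0.19, Fkbp10 -0.046, Fkbp14 -0.38, P4ha2 -0.47, Plod2 -0.48, Serpinh1 -0.16, Ero1l -0.082, Calr -0.11, Canx -0.13, Manf -0.17, Ssr1 -0.12, Ssr3 -0.024, Sec23a -0.26 and Lman1 -0.054. Canx, near 0, was also negative with median-ratio scaling (-0.044), quantile normalization (-0.016), the visceral endoderm covariate (-0.037), and over the fits without 1 embryo it lay between -0.048 (without TKO-labelled replicate 3) and 0.14, at -0.03 without Control replicate 3. Ero1l was at -0.084 with the visceral endoderm covariate, and between -0.056 (without TKO-labelled replicate 3) and 0.30 without 1 embryo. Fkbp11 lay between -0.19 (without Control replicate 3) and 0.16, at 0.03 without TKO-labelled replicate 1, 0.16 without Control replicate 1 and 0.02 without Control replicate 2. The cause was not tested.

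Median-ratio scaling moved the median of all genes to 0.021 and that of the 40 to 0.32, and changed the genes at an unadjusted p under 0.05 from 13.9% higher and 3.6% lower to 8.05% and 6.42% of all genes. With the replicate number as a block, 20 of the 40 had higher values at an unadjusted p under 0.05, against 13.6% of all genes, and 0 passed the adjusted threshold. Same-numbered embryos deviated together with correlations of -0.00451, 0.402, 0.265 and -0.0207, and 4 of 8 embryos correlated best with their own number, so the numbers were not taken to pair the embryos. The number of embryos, 4 a group, and the spread of TKO-labelled replicate 1 from the rest limit all of these results.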
